A study of Mus musculus with 3 samples.

Results

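Tumour necrosis factor, its receptors and the protein complex that assembles on them are described here at the mRNA level in resting mouse macrophages. The 10 genes were taken by symbol. They are the ligand Tnf, the receptors Tnfrsf1a (TNFR1) and Tnfrsf1b (TNFR2), the sheddase Adam17, the adaptor Tradd, the ubiquitin ligase scaffold Traf2, the kinases Ripk1 and Ripk3, the ubiquitin ligase Birc2 (cIAP1) and the caspase-8 regulator Cflar (cFLIP). They are 10 of 55536 annotated genes, and each was found in the tables of every library.

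The series holds 1 group of 3 libraries, numbered biological replicates 1, 2 and 3. Each library is total RNA, depleted of ribosomal RNA, from cytosol of C57BL/6J macrophages, primary cells grown out of bone marrow (bone marrow-derived macrophages). Lipid A, the lipopolysaccharide moiety sensed by TLR4, is labelled at 100 ng/ml for 0 minutes, so these are cells at the start of stimulation, and 1 µg of RNA went into each library. No genotype beyond the strain is labelled, sex and age were not collected, and all 3 libraries carry the same donor label with no word on separate animals or cultures, so the SDs below may be technical.

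TNF is made as a trimer in the cell membrane, from which the metalloprotease ADAM17 releases the soluble cytokine. TNFR1, found on most cell types, has a death domain that recruits TRADD and RIPK1. TRAF2 and the cIAP ligases then join, and ubiquitin chains built there start signalling to NF-kB. TNFR2, found mainly on immune and endothelial cells, lacks a death domain and binds TRAF2 directly. When the ubiquitin chains are lost, RIPK1 can move into a second complex with FADD and caspase-8, which cFLIP restrains, and if caspase-8 is blocked, RIPK3 and MLKL can carry out necroptosis. Macrophages are a major source of TNF once TLR4 is engaged.

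Some sequences show what the measurements below refer to. Coordinates are on mm10 (GRCm38), promoter windows are from RefSeq (GRCm38.p6) and transcript stretches are from GENCODE M21. The Tnf window, chr17:35201958-35202257 on the minus strand, runs from 250 bases before the annotated start to 50 bases after it, and is shown because both Tnf transcripts begin there. Capitals mark matches to TATAAA and, on the opposite strand, to GGGCGG (read here as CCGCCC).
Tnf promoter: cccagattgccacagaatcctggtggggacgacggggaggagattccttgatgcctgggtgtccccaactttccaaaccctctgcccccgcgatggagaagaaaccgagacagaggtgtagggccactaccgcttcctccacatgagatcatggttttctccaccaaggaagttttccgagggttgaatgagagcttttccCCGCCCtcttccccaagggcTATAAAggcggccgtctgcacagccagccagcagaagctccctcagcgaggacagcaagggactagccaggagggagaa
TATAAA began 29 bases before the start, on the coding strand. On either strand, TATAAA was in 13.6% of 32851 windows of the same length and GGGCGG in 35.7%. The windows of these genes, 11 for 9 of the 10 genes (Tradd was not among them), held TATAAA in 2 (Tnf and Cflar, where 2 overlapping matches lie on opposite strands) and GGGCGG in 8. The NF-kB consensus, found in 5.8% of all windows, was in 0 of these 11. A match is only a run of letters, and a missing match says nothing about sites outside the window.

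The Tnf 3′ UTR holds an AU-rich element, the kind of sequence bound by tristetraprolin, the product of Zfp36, which speeds decay of Tnf mRNA. The stretch with the most ATTTA pentamers in 30 bases lies at chr17:35199677-35199706, minus strand, in the 764-base 3′ UTR of Tnf-201, and the pentamers are in capitals.
Tnf AU-rich element: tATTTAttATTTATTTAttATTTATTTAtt
Of the 8 ATTTA copies in the Tnf 3′ UTR, 5 are in this stretch. As many in 30 bases were found in 0.113% of the 8835 3′ UTRs searched, which are those of the main transcripts of expressed genes, while any ATTTA was found in 66.5%. Among the other 9 genes, the most in 30 bases was 3, in Cflar.

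Traf2 has a pair of coding transcripts that differ by 21 bases in frame, or 7 codons, within the part that encodes the RING finger; the form with the insert has been described in mouse as TRAF2A. The bases on either side of the exon junction, chr2:25537135-25538880 on the minus strand, are shown, with the insert (chr2:25538845-25538865) in capitals. In Traf2-201 the same 21 bases are the first of the intron.
Traf2-202: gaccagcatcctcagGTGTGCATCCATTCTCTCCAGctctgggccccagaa
Traf2-201: gaccagcatcctcagctctgggccccagaa

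Cflar encodes a long form with an inactive caspase-like domain and a short form that ends soon after the death effector domains. They share 204 codons. The stretch where they part begins at chr1:58732312 on the plus strand, and capitals mark the bases after the shared part. In the short form these bases run on directly from the exon, and in the long form they come from the next exon.
Cflar-205: aagtataactcaaggCTCCAGAATGGGCGA
Cflar-204: aagtataactcaaggGTGAGTCTGGAGCCA
The long form has 481 codons in Cflar-205, and the short form has 215 in Cflar-204, the last 11 of them its own.

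Ripk1 has 2 main transcripts with the same 656 codons but separate starts. Windows of 300 bases at both starts are shown, chr13:34002113-34002412 for Ripk1-201 and chr13:34002624-34002923 for Ripk1-203, plus strand, with GGGCGG on either strand in capitals.
Ripk1-201 start: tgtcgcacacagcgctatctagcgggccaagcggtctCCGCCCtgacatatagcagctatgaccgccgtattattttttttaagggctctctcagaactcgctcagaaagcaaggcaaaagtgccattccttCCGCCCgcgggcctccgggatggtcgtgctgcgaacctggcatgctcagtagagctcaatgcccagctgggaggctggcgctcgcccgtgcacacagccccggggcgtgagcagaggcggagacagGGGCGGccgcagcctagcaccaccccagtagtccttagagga
Ripk1-203 start: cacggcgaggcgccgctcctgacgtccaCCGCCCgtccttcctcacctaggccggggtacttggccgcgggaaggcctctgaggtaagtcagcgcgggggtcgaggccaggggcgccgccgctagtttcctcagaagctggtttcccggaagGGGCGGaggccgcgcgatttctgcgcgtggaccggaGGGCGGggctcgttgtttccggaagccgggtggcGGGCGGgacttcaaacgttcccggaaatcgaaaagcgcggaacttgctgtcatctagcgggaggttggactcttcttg
The first window held 3 matches and the second held 4.

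The libraries held 26318750, 41897235 and 56290280 expected counts over genes in replicates 1, 2 and 3, where an expected count is an estimated number of reads per gene. Of 6 macrophage markers, 6 had a TPM of at least 1 in every library, and they summed to between 5045 and 7208 TPM (a level per transcript length, scaled to a fixed library total of 1000000). Lyz2 averaged 4792 TPM and Csf1r 254.1 TPM. Of the 17 markers of T, B, natural killer and mast cells and fibroblasts, 17 were below 1 TPM, with Cd3e, Eomes and Fcer1a at 0 counts; of 6 neutrophil markers, S100a8, S100a9 and Mmp8 were at 4.71 to 10.8 TPM and Ly6g was at 0 counts, and the 6 summed to between 21.4 and 22.8 TPM. Of the 4 nuclear noncoding RNAs looked at, replicate 3 stood apart in Malat1, Neat1 and Kcnq1ot1. Malat1 had 223.8, 206.5 and 1008.2 TPM in replicates 1, 2 and 3, and Neat1 had 18.6, 16.7 and 92.5 TPM. Kcnq1ot1 and Airn were below 1 TPM. Kcnq1ot1 had 0.05, 0.02 and 0.15 TPM, from 215, 135 and 1557 expected counts. Airn had 0.39, 0.20 and 0.45 TPM, from 14, 14 and 42 expected counts. Airn in replicate 3 was close to replicate 1. In bulk RNA, fewer cells of a kind and less RNA per cell cannot be told apart, in these genes as in any other.

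All 10 genes were expressed, with a TPM of at least 1 in all 3 libraries. That threshold was passed by 17.0% of all annotated genes and by 40.9% of the 22015 protein-coding genes of the nuclear genome. The median of the 10 mean levels was 11.8 TPM, beside 7.18 TPM over the 9010 protein-coding genes that passed. Levels fell into 2 ranges, 5 genes at 18.0 TPM or above and 5 genes at 5.59 TPM or below, and the highest mean was 25.4 times the lowest. The 5 higher ones were both receptors, the sheddase, Cflar and Ripk1, and the 5 lower ones were the ligand, Tradd, Ripk3, Birc2 and Traf2. At 5 TPM in every library 5 of 10 passed, against 23.9% of protein-coding genes.

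**Figure D1:**
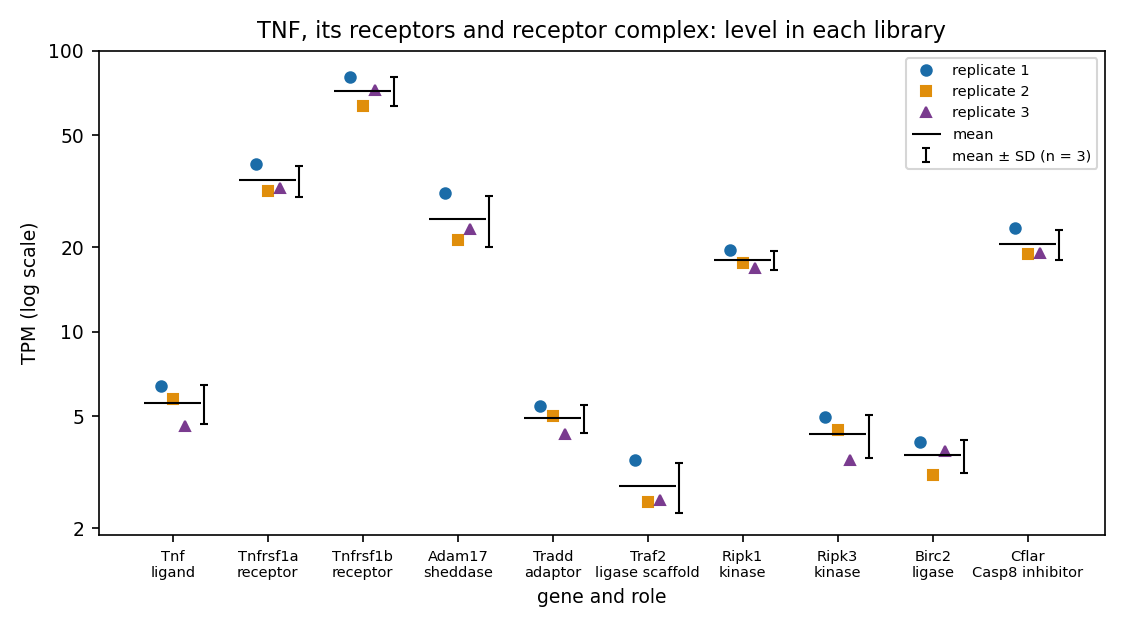
TPM of each gene in each library, on a log axis, with the mean and SD (n = 3). Tnfrsf1b stands highest with a mean of 72.1 TPM and Traf2 lowest with 2.84 TPM, and no gene lies between 5.59 and 18.0 TPM on average.

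Tnf (ENSMUSG00000024401.14, chr17:35199381-35202007, minus strand) had 6.40, 5.75 and 4.61 TPM in replicates 1, 2 and 3, from 426, 691 and 722 expected counts. Its mean was 5.59 ± 0.906 TPM (SD, n = 3), at percentile 41.3 of expressed protein-coding genes. The ligand's mRNA was therefore measurable at 0 minutes in each library, and below the median of expressed genes.

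Both receptors were well above the ligand. Tnfrsf1b (ENSMUSG00000028599.10, chr4:145213463-145246870, minus strand) had 80.35, 63.51 and 72.45 TPM, a mean of 72.1 ± 8.43, at percentile 94.9. Tnfrsf1a (ENSMUSG00000030341.17, chr6:125349362-125362484, plus strand) had 39.54, 31.60 and 32.52 TPM, a mean of 34.6 ± 4.34, at percentile 88.8. The lowest library of Tnfrsf1b was above the highest of Tnfrsf1a. Within libraries Tnfrsf1b was 2.09-fold higher than Tnfrsf1a, with log2 ratios of 1.02, 1.01 and 1.16 (1.06 ± 0.08, SD, n = 3). Against the ligand, Tnfrsf1b was 13.0-fold higher (log2 ratio 3.70 ± 0.26) and Tnfrsf1a 6.21-fold higher (2.63 ± 0.18). These and the ratios below come to 9, and each gave 0.25 in a two-sided exact sign-flip test over 3 libraries, also after Benjamini-Hochberg adjustment; 0.25 is the smallest p that 3 libraries allow, so no ratio could pass 0.05.

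Adam17 (ENSMUSG00000052593.16, chr12:21323509-21373632, minus strand), which cuts TNF and also both receptors from the cell surface, had 31.12, 21.22 and 23.28 TPM. Replicate 1 was the highest of these and replicates 2 and 3 were close together, with a mean of 25.2 ± 5.22 TPM. Adam17 was 4.49-fold higher than Tnf (log2 ratio 2.17 ± 0.25). A stretch of 311 bases of the gene is shared with Iah1 on the opposite strand, which had 477 to 838 counts, fewer than Adam17 with 6164 to 10730. Whether counting used strand is not given in the sources used here, so reads in such overlaps cannot be told apart.

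Of the genes for the membrane-bound complex, Tradd, Traf2 and Birc2 were in the lower range and Ripk1 in the higher. Tradd (ENSMUSG00000031887.13, chr8:105258286-105264609, minus strand), which bridges the TNFR1 death domain to TRAF2, had 5.44, 5.02 and 4.33 TPM. Traf2 (ENSMUSG00000026942.13, chr2:25517982-25546940, minus strand), which brings the cIAP ligases to the receptors, was the lowest of the 10 with 3.50, 2.48 and 2.53 TPM. Birc2 (ENSMUSG00000057367.12, chr9:7818227-7837064, minus strand), which ubiquitinates RIPK1, had 4.05, 3.10 and 3.78 TPM. Tradd was higher than Traf2 in 3 of 3 libraries (1.75-fold, log2 ratio 0.81 ± 0.19), and Traf2 was lower than Birc2 in 3 of 3 (log2 ratio -0.37 ± 0.19), though the ranges of Traf2 and Birc2 over libraries overlapped.

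Birc2 lies beside a close paralog, Birc3 (cIAP2), which had 13.17, 7.94 and 9.43 TPM, higher than Birc2 in each library. Their coding sequences are 76% identical, with a longest shared run of 114 bases, so the division of reads between these genes is uncertain.

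Ripk1 (ENSMUSG00000021408.15, chr13:34002363-34037147, plus strand), the kinase that links survival signalling and death, had 19.59, 17.51 and 16.83 TPM, a mean of 18.0 ± 1.44. Ripk1 was 3.65-fold higher than Tradd (log2 ratio 1.87 ± 0.08). The first 432 bases of Ripk1 are shared with Serpinb6a on the opposite strand, which had 15207, 24268 and 27915 counts, several times the 3478, 5533 and 6766 of Ripk1. The start of Ripk1-203 lies outside that overlap and the start of Ripk1-201 lies inside it. Ripk1 also overlaps the pseudogene Gm17084 on the same strand, over 511 bases, which had 79, 166 and 186 counts. The pseudogene Gm17083 on the opposite strand, over 1366 bases, had 10, 7 and 90 counts.

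Ripk3 was in the lower range of the 10 genes and Cflar in the higher. Ripk3 (ENSMUSG00000022221.14, chr14:55784995-55788865, minus strand), the kinase that activates MLKL, had 4.98, 4.49 and 3.50 TPM. Its mean of 4.32 ± 0.754 TPM was the eighth of the 10. Ripk1 was 4.19-fold higher than Ripk3, with log2 ratios of 1.98, 1.96 and 2.27 (2.07 ± 0.17). That log2 ratio was 2.52 in the kallisto-format tables, where the TPM of Ripk3 was 0.334 of its RSEM-format TPM, the lowest such value of the 10 genes, of which the highest was 0.465. Cflar (ENSMUSG00000026031.15, chr1:58711508-58758884, plus strand) had 23.41, 18.87 and 19.09 TPM. It was slightly above Ripk1 in 3 of 3 libraries (1.13-fold, log2 ratio 0.18 ± 0.07), with ranges that overlapped.

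In the order of mean levels, 3 of the 9 steps between neighbours had ranges over libraries that did not overlap. These were Tnfrsf1b above Tnfrsf1a, Tnfrsf1a above Adam17 (log2 ratio 0.47 ± 0.12) and Ripk1 above Tnf (1.70 ± 0.15). The other 6 steps, from Adam17 to Cflar to Ripk1 and from Tnf through Tradd, Ripk3 and Birc2 to Traf2, had ranges that overlapped. This holds for neighbours only, and genes further apart in the order could have separate ranges. The lowest library of Adam17 (21.22 TPM) was above the highest of Ripk1 (19.59 TPM), and the lowest of Tnf (4.61 TPM) was above the highest of Birc2 (4.05 TPM). Within single libraries the order of each neighbouring pair held in 3 of 3, except that Ripk3 was above Birc2 in 2 of 3. The deposited interval bounds of TPM overlapped in 3 of 3 libraries for Tnf and Tradd and for Tradd and Ripk3. They overlapped in 2 for Ripk3 and Birc2, and in 1 for Cflar and Ripk1 and for Birc2 and Traf2. The order within the lower range is therefore not settled in single libraries. The kallisto-format tables gave 8 of the 10 genes the same rank, and placed Birc2 above Ripk3.

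All 10 genes had their highest TPM in replicate 1. That was also true of 82.7% of expressed protein-coding genes. Protein-coding genes took 25.8% of TPM in replicate 1 and 21.4% and 20.8% in replicates 2 and 3. When TPM was rescaled over protein-coding genes, 2 of 10 were highest in replicate 1. The share over all genes on that rescaled TPM was not computed, so the 2 of 10 is not read as a trait of these genes. On TMM-scaled log2 CPM, in which counts are scaled to library size and to the bulk of genes, 3 of 10 were, beside 37.3% of expressed protein-coding genes and 33.0% of all genes that passed the count filter.

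On that scale the spread between libraries was small. The SD over 3 libraries was 0.01 for Cflar, 0.04 for Tnfrsf1a, 0.05 for Ripk1 and 0.09 for Tnfrsf1b. It was 0.17 for Tnf, Adam17 and Tradd, the largest among the 10. The median SD was 0.13, beside 0.12 over 12413 genes that passed the count filter. All but Cflar, 9 of 10, exceeded the SD that counting alone gives, a comparison made for these 10 genes only. Tnf in replicate 3 was lower than the mean of the other libraries by 0.28 and Tradd by 0.27, both on the log2 scale, and Ripk3 by 0.22. Adam17 in replicate 1 was higher than the others by 0.27. Tnf, Tradd and Ripk3 are among the 5 genes with the fewest counts, and replicate 3 is the library with the high Malat1; the part of either in these differences was not tested. Without replicate 3 the median SD was 0.07, beside 0.09 over all genes. Without replicate 1 or 2 it was 0.10, beside 0.10 and 0.11 over all genes. These SDs rest on fewer libraries than the 0.13, so the lower values are not read as a result.

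**Figure D2:**
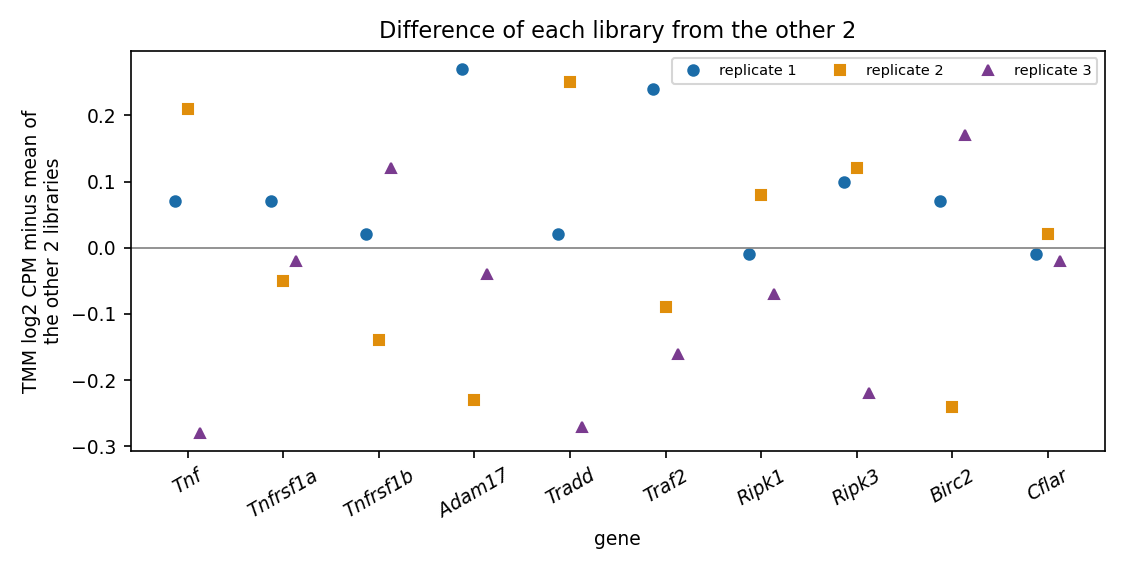
Each library minus the mean of the other 2, in TMM-scaled log2 CPM, for each gene. Differences lie between -0.28 (Tnf in replicate 3) and 0.27 (Adam17 in replicate 1), and Cflar stays within 0.02 of zero.

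The transcript tables give, for each annotated transcript, its share of the gene's TPM. The 10 genes have 59 transcripts, of which 13 had 0 counts in all 3 libraries. The transcript with the highest share was protein-coding for all 10 genes. Neither of these counts was made over all expressed genes, so they only describe the 10. Its share had a median of 85.6%, beside 80.0% over 8373 expressed protein-coding genes with several transcripts. It exceeded 90% for 5 of 10 genes, beside 36.6% of those genes.

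The ligand, the receptors, the sheddase and Tradd used essentially 1 transcript. Tnf-201 took 100.0% in each library, and Tnf-202, which lacks 16 codons, had 0 counts. Tnfrsf1a-201 took 99.8 ± 0.352% and Tnfrsf1b-201 took 99.4 ± 0.365% (SD, n = 3). Adam17-201 took 95.3 ± 1.44%. Adam17-202, with 57 more coding bases, had 0.0633% on average. Tradd-201 took 96.75, 99.33 and 89.67% in replicates 1, 2 and 3, lowest in replicate 3.

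The insert-bearing Traf2-202 took 61.61, 54.35 and 66.54% of Traf2, and Traf2-201 took 37.60, 45.25 and 31.71%. Traf2-202 was the higher in 3 of 3 libraries. The kallisto-format tables put Traf2-202 at 76.4 ± 1.16% and Traf2-201 at 19.7 ± 3.38%, so the direction was shared and the size was not. By expected counts, which are not per length, Traf2-201 was ahead in replicate 2 with 268.2 against 220.5. The transcripts also differ in 3′ UTR length, 544 bases in Traf2-202 and 1428 in Traf2-201, so the shares do not rest on reads over the insert alone.

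The long Cflar-205 took 53.72, 58.79 and 55.80% of Cflar by TPM and 88.9, 90.8 and 88.0% by expected counts. The short Cflar-204 took 9.15, 7.31 and 7.98% by TPM and between 3.19 and 4.25% by counts. The 3 libraries were alike in having the long form several times higher. Another 33.2 ± 2.49% of TPM was assigned to processed transcripts, which held between 4.14 and 5.82% of the counts. Of the 8 annotated, Cflar-203, Cflar-206 and Cflar-211 had 0 counts in the RSEM-format tables. In the kallisto-format tables Cflar-205 took 45.8 ± 2.03% and Cflar-201, with the same number of codons and 0 counts in the RSEM-format tables, took 9.75 ± 4.09%. The 3′ UTR of Cflar-204 is made of intron of the long form, so reads from unspliced Cflar RNA cannot be told apart from Cflar-204 there.

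Of Ripk1, Ripk1-201 took 75.69, 77.75 and 74.21% and Ripk1-203 took 23.08, 21.71 and 20.91%. Ripk1-203 has a 3′ UTR of 4365 bases, against 895 in Ripk1-201, and held 38.4, 36.3 and 35.8% of the expected counts. The kallisto-format share of Ripk1-203 was 14.4 ± 0.858%. Birc2-204 and Birc2-202, which encode the same number of codons, took 60.5 ± 4.83% and 32.8 ± 2.26%, against 77.2 ± 6.43% and 8.96 ± 3.85% by kallisto-format TPM. Their division thus depended on the table.

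Ripk3-201, the full-length coding transcript, took 63.3 ± 3.92% of Ripk3 by TPM but 87.6, 89.6 and 91.2% by counts. The difference lay mostly in Ripk3-206, a short transcript annotated as retained intron, which took 33.98, 28.07 and 21.77% of TPM from 19.8, 28.0 and 22.1 counts. The kallisto-format tables gave Ripk3-206 5.41 ± 6.52%, from 6.11, 2.74 and 0 counts. The level of Ripk3 rests in part on these few counts: Ripk3-201 by itself had 2.72 ± 0.366 TPM.

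**Figure D3:**
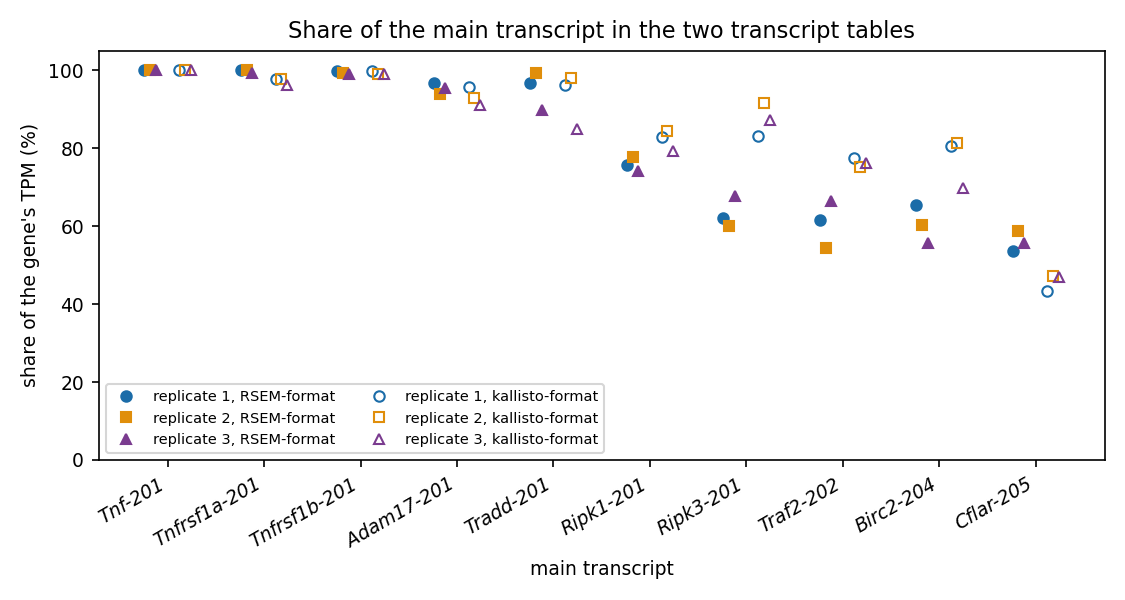
Share of each gene's TPM taken by its main transcript in each library, filled for the RSEM-format and open for the kallisto-format tables. Main transcripts of Tnf, both receptors, Adam17 and Tradd stay at or above 84.9% in both tables, while those of Ripk1, Ripk3, Traf2 and Birc2 are higher in the kallisto-format tables and that of Cflar is lower.

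Retained-intron transcripts, which keep part of an intron, are annotated for 8 of the 10 genes, beside 5690 of the 9010 expressed protein-coding genes. Summed over those 8, they held 0.498% of expected counts in replicate 1, 0.482% in replicate 2 and 1.90% in replicate 3, or 95, 130 and 680 counts. Replicate 3 was 3.88 times the mean of the others, and over all expressed protein-coding genes with such transcripts it was 1.51 times (2.11, 2.02 and 3.12%). Both are ratios of sums, which genes with many counts dominate. Of the 680 counts in replicate 3, Cflar held 363.0 and Ripk1 155.2. How often single genes over the genome changed as much was not computed. Of the 7 genes with any such count, 6 had their highest share in replicate 3. That was so for 82.5% of 5474 expressed protein-coding genes, so the count of 6 is near the background. The largest change in counts was in Cflar-213, a single-exon transcript that keeps an intron, with 44.0, 65.0 and 363.0 counts. Ripk1-202 had 13.0, 15.1 and 151.4 counts. Ripk3 was the exception, with 7.13, 6.58 and 4.61%. Malat1 and Neat1 were high in the same library; their part in these shares was not tested.

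**Figure D4:**
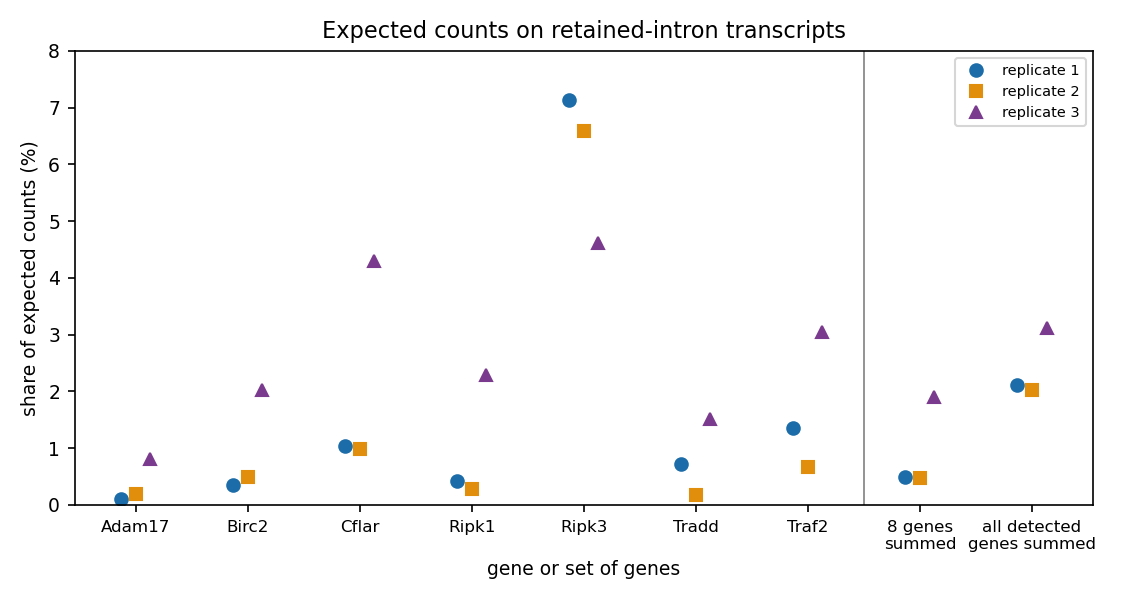
Share of expected counts on retained-intron transcripts, for the 7 genes with any, for the 8 genes with such transcripts summed (Tnfrsf1a, at 0 counts on them, included) and for all expressed protein-coding genes summed. Replicate 3 is highest in every column except Ripk3, at 1.90% for the 8 genes summed and 3.12% for all genes.

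The other genes of the pathway were taken as a list of 36, grouped by role. Of these, 31 had a TPM of at least 1 in all 3 libraries, beside the 40.9% of protein-coding genes given above, 4 were below 1 in all 3 and Traf1 was below 1 in replicate 2. Their median was 6.96 TPM. The 5 exceptions were 2 ligands, 2 shedding partners and Traf1.

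The ligands next to Tnf in the genome were near zero. Lta (lymphotoxin alpha) had 0.02, 0.01 and 0 TPM from 1, 1 and 0 counts. A count of 0 in replicate 3 allows up to 3 counts, or 0.0533 CPM (counts scaled to library size); such limits cover counting error only. Ltb (lymphotoxin beta) had 0.09, 0.21 and 0.15 TPM.

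Of 5 shedding partners, 3 passed. Adam10, a related protease, had 23.09, 18.30 and 22.46 TPM, close to Adam17. Rhbdf2 (iRhom2), which carries ADAM17 to the cell surface in myeloid cells, had 8.66, 6.87 and 6.53 TPM. Its paralog Rhbdf1 had 0.61, 0.46 and 0.51 TPM, and Timp3, the ADAM17 inhibitor, had 0.02, 0.03 and 0.05 TPM. Rhbdf2 was thus far above Rhbdf1 in every library.

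Of 17 ubiquitin ligases and complex components, 16 passed. The highest were Ube2n, the conjugating enzyme for K63 chains, with 30.20, 23.47 and 25.84 TPM, and Tab2, a ubiquitin-binding partner of the kinase TAK1, with 26.41, 20.67 and 21.08 TPM. The lowest were Map3k5 (ASK1), with 1.66, 1.52 and 1.38 TPM, and Traf1, with 1.09, 0.93 and 1.16 TPM. Ube2n and Tab2 were thus at the level of Adam17 and Cflar, and Traf1 was lower than Traf2 in each library.

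All 7 deubiquitinases and other brakes passed. Zfp36, whose product binds elements like that of Tnf printed above, had 30.38, 21.76 and 27.01 TPM, several times the level of Tnf in each library. Tnip1 (ABIN1), which binds ubiquitin chains together with A20, had 18.95, 17.60 and 14.04 TPM. The lowest were Tnip2 with 5.33, 3.93 and 5.33 TPM and Tnfaip3 (A20), an NF-kB target that edits ubiquitin chains, with 5.91, 3.43 and 4.03 TPM.

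All 5 genes of the death complex passed. Zbp1, a nucleic acid sensor that binds RIPK3, had 43.47, 20.15 and 19.97 TPM, with replicate 1 apart from the others. Casp8 had 22.86, 17.69 and 17.46 TPM, near Cflar, its regulator. Diablo, an IAP antagonist, had 5.18, 4.42 and 4.71 TPM, and the adaptor Fadd was lowest with 3.52, 2.92 and 2.75 TPM. Mlkl, the effector of RIPK3, had 9.71, 6.53 and 5.89 TPM, above Ripk3 in each library.

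**Figure D5:**
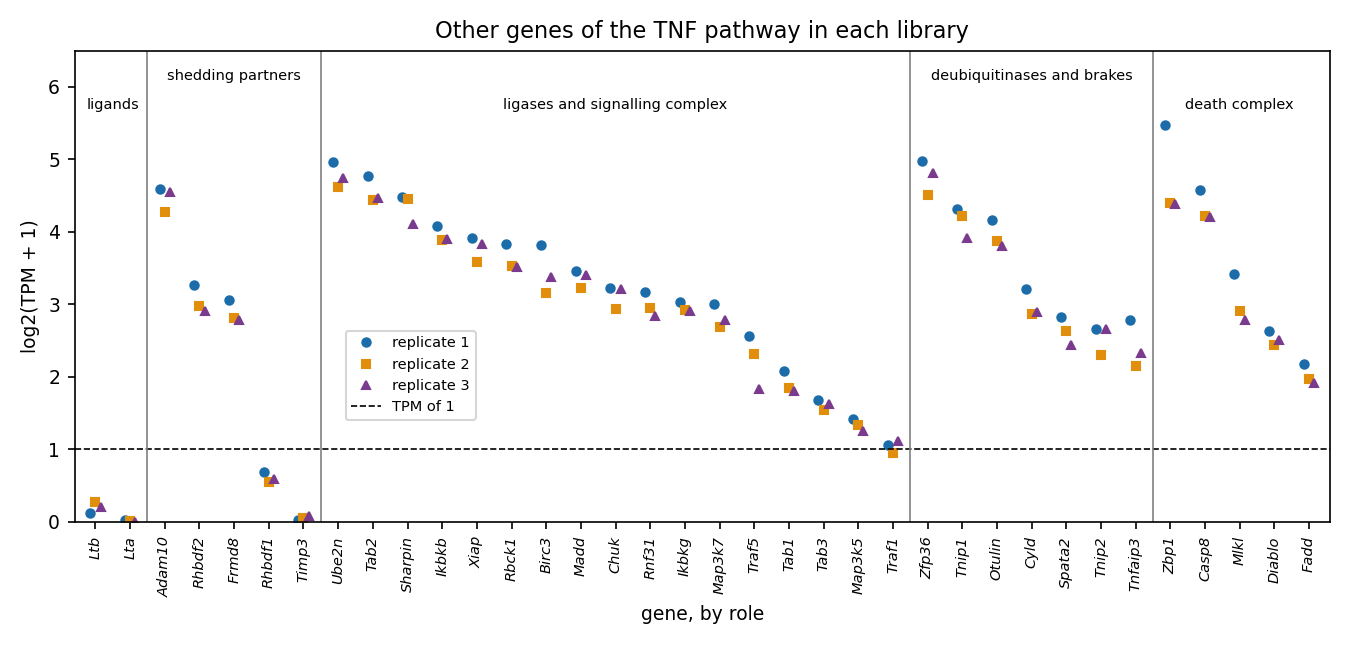
Level of the 36 other pathway genes in each library as log2(TPM + 1), by role and in order of mean level, with a dashed line at a TPM of 1. Lta, Ltb, Rhbdf1 and Timp3 lie below the line in all libraries, and Zbp1 in replicate 1 is the highest point at 43.47 TPM.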

How the data were processed

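Values refer, per the labels and the deposited notes, to mm10 and GENCODE M21; aligner, tool versions, strand setting and the making of the libraries are not given in the sources used here. The authors deposited, per the file headers, an RSEM-format gene table and transcript table and a kallisto-format transcript table per library. These hold expected counts, TPM as maximum likelihood and posterior mean, interval bounds of TPM (on the TPM scale, used for checks of order), and the percent of a gene's TPM on each transcript, as the deposited headers name them. The headers of the kallisto-format tables give estimated counts and TPM, summed here per gene.

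The 10 genes and all lists were chosen with earlier results of these data known, and the nuclear RNAs, Birc3 and Mlkl were named after their values were seen. Of each role in the pathway list, the 2 highest and 2 lowest genes by mean TPM were named, plus any below a TPM of 1. With 1 group there is no comparison between treatments; ratios within libraries were tested by exact sign flips, two-sided. Spread came from edgeR 4.0.16 (R 4.3.3): expected counts rounded to whole numbers, edgeR's filter on low counts, TMM, log2 CPM with prior count 2. This step was tested on simulated data. DESeq2 1.42.0 gave other size factors. Tables were handled in Python 3.11.15 with pandas 2.3.3. The alternatives tried were other TPM estimates, thresholds of 0.5 and 5 TPM, other scaling and leaving out each library. Gene totals ran to between 26318750 and 56290280 counts per library, and 3 libraries limit the precision of every SD.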

Additional observations from a re-analysis of the deposited data

How the results depend on the processing

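No paired analysis was possible because the series holds 1 group, so no groups share replicate numbers. The number of the 10 genes detected was 10 under every alternative except a TPM threshold of 5, which left 5; pathway genes detected ranged from 22 to 33 around 31. The median level of 11.8 TPM became 5.34 TPM in the kallisto-format tables and 52 TPM when rescaled over protein-coding genes, which took 20.8 to 25.8% of RSEM-format and 8.57 to 10.8% of kallisto-format TPM; leaving out 1 library gave 11.2 to 12.3 TPM. The log2 ratio of Tnfrsf1b over Tnfrsf1a was 1.02 to 1.09 without 1 library and 1.03 to 1.04 in other TPM estimates; with expected counts, which are not per length, it was 1.95. That of Ripk1 over Ripk3 was 1.87 with posterior mean TPM, 2.52 in the kallisto-format tables, 3.72 with expected counts and 1.97 to 2.12 without 1 library. The median SD of 0.13 was 0.14 with DESeq2 size factors and 0.17 on log2(TPM + 1). Without 1 library it was 0.07 to 0.10, lowest without replicate 3, where all genes had a median of 0.09. Without replicates 1 and 2 the medians over all genes were 0.10 and 0.11. The median main transcript share of 85.6% was 90.2% in the kallisto-format tables, and 84.1 to 86% without 1 library. Neither of these 2 ratios changed sign; the other 7 were not recomputed. Of single genes, 10 of 10 levels moved by more than their SD in the kallisto-format and in the rescaled TPM. Without 1 library 0 of 30 values did. That outcome was fixed in advance, since leaving out 1 of 3 values cannot move a mean by its SD. Rescaling multiplies all levels of a library by the same factor, so the moves in rescaled TPM follow from the scaling itself. Main transcript shares moved in 7 of 10 genes in the kallisto-format tables. The cause of the moves in the kallisto-format tables was not tested. Depth limits what can be said of Ripk3-206 and Lta, which rest on few counts.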
